A study of Mus musculus with 6 samples.

Results

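The genes described here are 40 mouse genes that are known to be imprinted, read from the one table of this series by their symbols and grouped by the imprinted cluster they belong to. All 40 have a row among the 55401 rows of the table: 39 were found by symbol and 1, Nespas, under its synonym Gnasas1. The measurement is newly made RNA, captured after the cells had built in 4-thiouridine (4sU, a uridine analogue with a thiol group that can be biotinylated and pulled down). The cells were 129/Ola mouse embryonic stem cells grown with LIF, whose ZFP207, a zinc finger protein, is fused to an auxin-inducible degron (AID). This tag sends the protein to the proteasome when indole-3-acetic acid (IAA) is added. There were 3 depleted libraries, from cells with IAA for 5 h and a genotype label that names ZFP207 degradation, and 3 control libraries, from cells without IAA (0 h). The control titles name the AID line, although their genotype label reads WT. Untagged cells given IAA were not analysed here, so effects of IAA and of ZFP207 loss cannot be told apart. The design text of the series asks what ZFP207 does for the U1 snRNP, which marks the start of introns for splicing. It calls the replicates independent without saying of what, so p-values measure only the spread between these libraries.

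In genomic imprinting, one copy of a gene is silent according to the parent it came from. Each cluster is governed by an imprinting control region whose DNA methylation is laid down in only one of the germ lines and then kept through cell division by factors that include ZFP57, ZFP445 and TRIM28. Many clusters pair a protein-coding gene with a long noncoding or antisense transcript read from the other parental copy, and in several of them the genes overlap. The table does not separate the parental copies, so every value below is the sum of both. The strand setting of the counting and the length of the 4sU pulse are both not given in the sources used here, and reads of overlapping genes may have been assigned to either. Those sources give no added reference RNA (spike-in) either. Every level, rise and fall below is therefore relative to its library, and a change in the total amount of newly made RNA would not show.

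Total counts were 14336811 to 23385133 in the depleted libraries and 17613103 to 25916628 in the controls, and the imprinted genes together took 0.287% to 0.345% of them in the depleted libraries and 0.300% to 0.355% in the controls. Zfp207 RNA stood at 695, 1467 and 596 CPM (counts scaled to the size of each library) in depleted libraries 1 to 3 and at 545, 1116 and 548 CPM in control libraries 1 to 3. The degron acts on the protein, so these values do not check the depletion. Zfp207 RNA was called higher in the paired fit (0.29 ± 0.07 on the log2 scale, SE; adjusted p = 0.0196, edgeR) and not in the unpaired one (adjusted p = 0.823). All 10 embryonic stem cell markers passed the filter on low counts, and their summed level was 4929 to 5572 CPM in the depleted libraries and 4704 to 5186 CPM in the controls. In the paired fit 2 of the 10 were called higher, Klf4 (0.25 on the log2 scale; adjusted p = 0.0468, edgeR) and Utf1 (0.40; adjusted p = 0.0126), and in the unpaired fit neither was (0.596 and 0.550). Of 8 fibroblast markers, 4 (Col3a1, Postn, Lum and Dcn) were at 0 in every library, and the 8 summed to 2.87 to 5.35 CPM in the depleted libraries and 2.49 to 8.94 CPM in the controls. In bulk libraries, fewer cells of a type and less RNA per cell cannot be told apart. Same-numbered depleted and control libraries deviated together across all genes (correlations of 0.268, 0.387 and 0.321 for numbers 1, 2 and 3, against −0.265 to −0.025 for unlike numbers). Deviations were taken from the mean of each group, so positive values at like numbers bring negative ones at unlike numbers. Only the values at like numbers therefore bear on pairing. On these values the replicate numbers were taken as pairs. A paired fit is given beside the unpaired one for the imprinted genes whose call it changes. The unpaired fit had been planned as the main one.

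The 36 imprinted genes that could be tested were called about as often as all genes after 5 h of depletion, and edgeR made its calls among them only in the paired fit. With an unpaired fit, none of the 36 was called lower or higher at an adjusted p of 0.05, while edgeR's quasi-likelihood test called 0.78% of all 17573 genes tested lower and 0.0114% higher. At an unadjusted p of 0.05 that fit held 6 of the 36 imprinted genes, against 10.9% of all genes tested. DESeq2 called 1 of the 36 lower (Nespas) and none higher, where it called 3.29% and 0.353% of all genes. With replicate number as a block, edgeR called 4 of the 36 lower (Sgce, Copg2, Nespas and Impact; 11.1%, against 7.9% of all genes tested) and 2 higher (Peg10 and Gnas; 5.56%, against 4.96%). Both shares lie near those of all genes. The median log2 fold change of the 36 was 0.04 unpaired and 0.05 paired, and over all genes it was 0.02 in both fits. The unpaired fold change was above 0 for 20 of the genes and below 0 for 16.

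**Figure D1:**
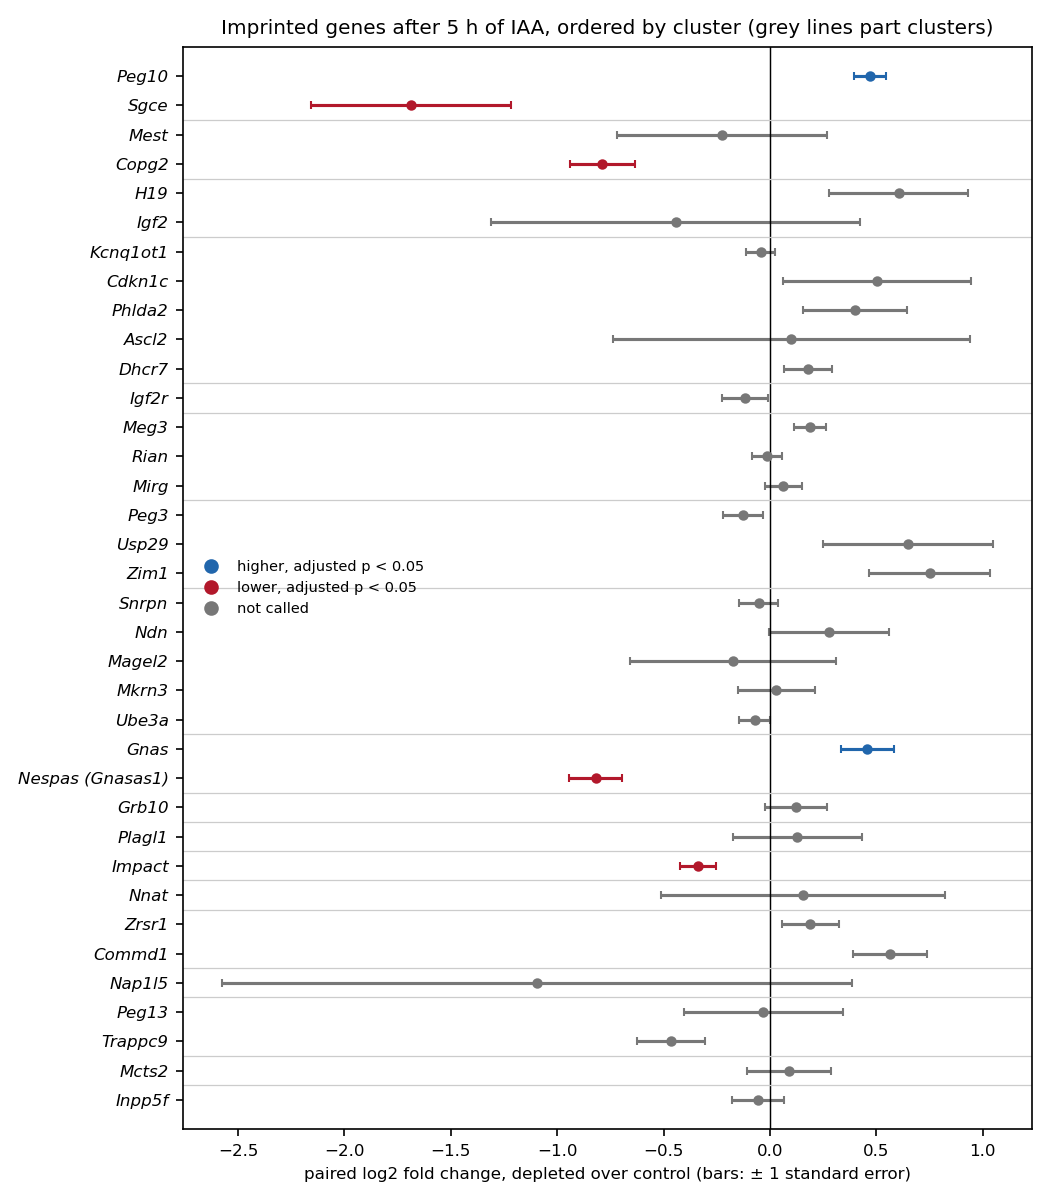
Log2 fold change of depleted over control libraries from the paired fit for the 36 imprinted genes tested, arranged by cluster, with bars of 1 standard error. The 6 called genes lie in the Peg10-Sgce, Mest, Gnas and Impact groups, and the other 30 genes were not called.

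Peg10 and Sgce form a head-to-head pair on chromosome 6 and moved in opposite directions in the paired fit. Both are paternally expressed. Peg10 (chr6:4747306-4760517, GRCm38.p6, the assembly that mm10 names) descends from a retrotransposon and is needed for the placenta. Sgce (chr6:4674350-4747204) encodes epsilon-sarcoglycan, a membrane protein, and 101 bases lie between its annotated start and that of Peg10. Sgce had 1.12, 1.83 and 0.745 CPM in depleted libraries 1 to 3, against 2.89, 4.04 and 4.82 CPM in control libraries 1 to 3. Every depleted library lay below every control library. These levels rest on few reads (25, 40 and 11 counts in the depleted libraries and 76, 71 and 89 in the controls). Sgce fell by 1.69 on the log2 scale in the paired fit (SE 0.47, 3.22-fold lower; adjusted p = 0.0335 by edgeR), and its adjusted p was 0.203 in the unpaired fit. It was not called when any of the 3 pairs was left out (adjusted p = 0.0711, 0.0561 and 0.215 without pair 1, 2 and 3, edgeR), nor with no filter on low counts (0.0908).

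Peg10 had 193, 365 and 386 CPM in depleted libraries 1 to 3, against 134, 249.6 and 305 CPM in control libraries 1 to 3. The groups overlapped, libraries numbered 1 being low in both, while each depleted library exceeded its paired control. Peg10 rose by 0.47 ± 0.07 on the log2 scale in the paired fit (SE; 1.39-fold; adjusted p = 0.00155, edgeR), whereas the unpaired adjusted p was 0.686. It was called without each pair in turn (adjusted p = 0.0113, 0.0096 and 0.009, edgeR). Within each library, the log2 ratio of Peg10 to Sgce was 7.41, 7.63 and 8.95 in the depleted libraries and 5.53, 5.94 and 5.97 in the controls. The difference of 2.18 had p = 0.1 in a two-sided exact permutation test, the smallest that 3 against 3 allows. Ppp1r9a, a neuronal actin-binding protein gene of the same imprinted region, was also called lower in the paired fit (−0.39 ± 0.09; adjusted p = 0.0137, edgeR), with 68.9, 95.9 and 50.9 CPM in the depleted libraries and 87.0, 130.3 and 66.3 CPM in the controls. Its unpaired adjusted p was 0.694 (edgeR). Pon2 and Pon3, further along the chromosome, were not called (paired 0.25 ± 0.23 and −1.23 ± 0.99; adjusted p = 0.538 and 0.466, edgeR).

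**Figure D2:**
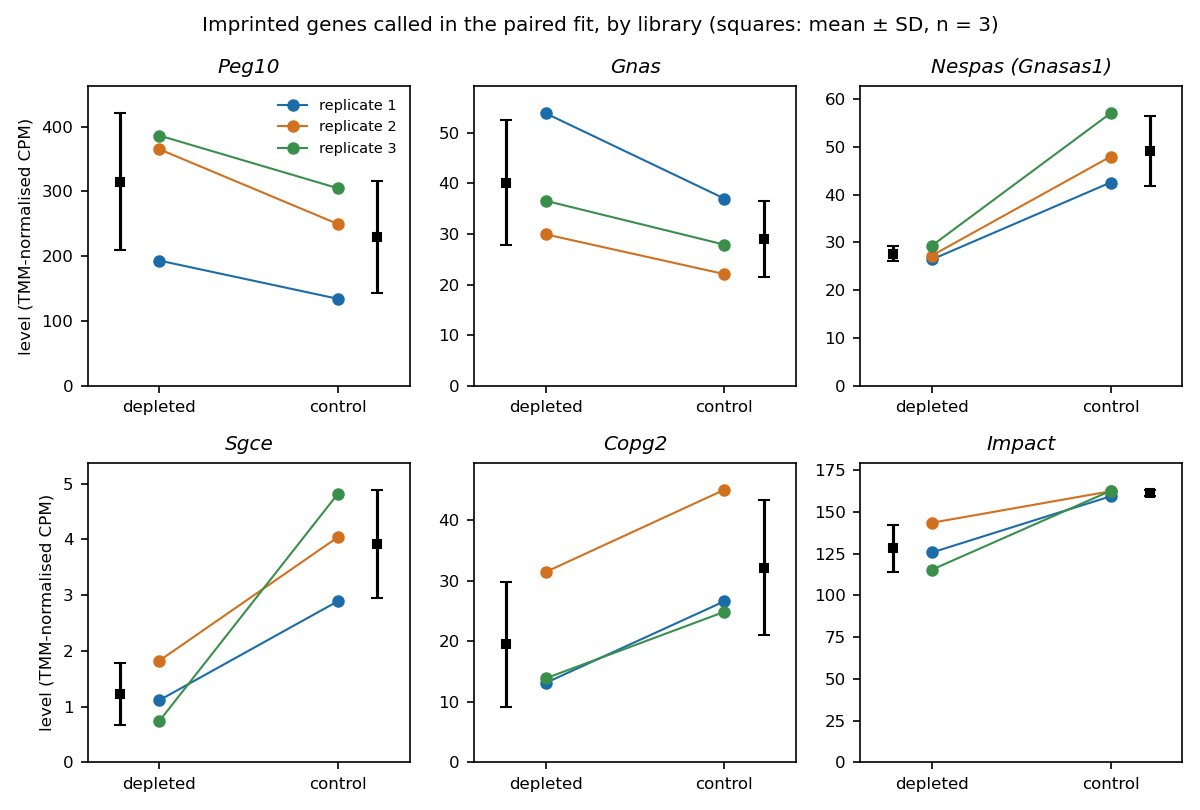
CPM in each library for the 6 imprinted genes called in the paired fit, depleted libraries left of controls, lines joining same-numbered libraries, squares and bars giving mean and SD (n = 3). Sgce, Nespas and Impact have no overlap between the groups, and in all 6 genes the 3 lines run the same way.

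The Gnas locus on chromosome 2 held the other opposite pair. Gnas (chr2:174284320-174346744) encodes the stimulatory G protein alpha subunit and shares its locus with several alternative transcripts. Nespas (chr2:174281237-174295436) is an antisense noncoding RNA from the paternal copy that silences Nesp, one of those transcripts, in mouse. Their annotated intervals share 11117 bases. Nespas had 26.4, 27.2 and 29.3 CPM in depleted libraries 1 to 3, against 42.5, 47.9 and 57.0 CPM in control libraries 1 to 3. The groups were apart and all 3 depleted libraries lay close together. Nespas fell by 0.82 on the log2 scale in the paired fit (SE 0.12; 1.76-fold lower; adjusted p = 0.00118, edgeR). Its unpaired adjusted p was 0.0841 with edgeR, and 0.00214 with DESeq2. It was called without each pair in turn (adjusted p = 0.00228, 0.00635 and 0.0226, edgeR).

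Gnas had 53.8, 29.9 and 36.6 CPM in depleted libraries 1 to 3, against 37.0, 22.1 and 27.9 CPM in control libraries 1 to 3. The groups overlapped, and each depleted library was above its own control. Gnas rose by 0.46 ± 0.13 on the log2 scale in the paired fit (SE; 1.37-fold; adjusted p = 0.0307, edgeR), against an unpaired adjusted p of 0.595. It was not called without pair 1, 2 or 3 (adjusted p = 0.166, 0.0693 and 0.114, edgeR), with no filter (0.0715) or with library totals alone as the scale (0.0533). The log2 ratio of Nespas to Gnas was −1.03, −0.14 and −0.32 in the depleted libraries and 0.20, 1.12 and 1.03 in the controls. That difference of −1.28 ran the same way in 3 of 3 pairs, with an exact two-sided permutation p of 0.1. As the counting may not have used strand, reads of the shared stretch cannot be told apart between the 2 genes.

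Mest and Copg2 overlap tail to tail by 913 bases on chromosome 6. Mest (chr6:30733506-30748466), a paternally expressed gene for a hydrolase-like protein, has its control region at its promoter. Copg2 (chr6:30747554-30896815, 149 kb long) encodes a coat protein of Golgi transport vesicles, and its imprinting is restricted to some tissues. Copg2 had 13.1, 31.4 and 13.9 CPM in depleted libraries 1 to 3, against 26.6, 45.0 and 24.9 CPM in control libraries 1 to 3. The groups overlapped, libraries numbered 2 being highest in both, and each depleted library was below its own control. Copg2 fell by 0.79 on the log2 scale in the paired fit (SE 0.15; 1.73-fold lower; adjusted p = 0.00545, edgeR), against an unpaired adjusted p of 0.548. It was called without each pair in turn (adjusted p = 0.0328, 0.0118 and 0.0358, edgeR). Mest had 4.95, 1.92 and 101 CPM in the depleted libraries and 7.92, 0.285 and 139 CPM in the controls, so that the libraries numbered 3 stood far above the rest in both groups. Its paired log2 fold change was −0.22 ± 0.49 (SE; adjusted p = 0.835, edgeR). Without pair 2, in which the control had 5 counts, it was −0.54 and was called (adjusted p = 0.0256, edgeR).

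Impact (chr18:12954690-12992950), a paternally expressed gene on chromosome 18, encodes a protein that restrains the kinase GCN2, a sensor of amino acid shortage. It had 126, 143 and 115 CPM in depleted libraries 1 to 3, against 159, 162 and 163 CPM in control libraries 1 to 3, and the groups were apart. Impact fell by 0.34 on the log2 scale in the paired fit (SE 0.09; 1.26-fold lower; adjusted p = 0.0214, edgeR), against an unpaired adjusted p of 0.420. The call was lost without pair 1 (adjusted p = 0.0909, edgeR), without pair 3 (0.123) and with no filter (0.0881).

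Of the 36 genes, 4 had every depleted library below every control (Sgce, Nespas, Impact and Trappc9; 11.1%, against 11.8% of all genes tested) and 3 had every depleted library above (Phlda2, Zim1 and Commd1; 8.33%, against 6.94%). Each depleted library lay below its own control for 5 genes (Copg2 besides those 4), and 24.1% of all genes tested did so, and above it for 8 (Peg10, H19, Dhcr7, Meg3 and Gnas besides those 3), against 24.2%. The shares of genes with separate groups lie near the background. Trappc9, which encodes a subunit of a Golgi trafficking complex and has imprinting restricted to brain, had 15.0, 17.9 and 15.4 CPM in the depleted libraries, against 23.1, 22.5 and 21.0 CPM in the controls (paired log2 fold change −0.46 ± 0.16; adjusted p = 0.0780, edgeR). Peg13, a noncoding RNA inside an intron of Trappc9, had 3.12, 2.65 and 3.38 CPM in the depleted libraries and 3.39, 2.85 and 3.09 CPM in the controls. Commd1, whose first intron holds the intronless Zrsr1, had 15.6, 19.9 and 18.9 CPM in the depleted libraries, against 10.6, 13.9 and 12.3 CPM in the controls (paired 0.56 ± 0.17; adjusted p = 0.0520, edgeR). Neither host gene passed the threshold. Phlda2, a maternally expressed brake on placental growth, had 10.5, 9.40 and 7.85 CPM in the depleted libraries and 7.50, 5.81 and 7.80 CPM in the controls (paired 0.40 ± 0.24; adjusted p = 0.320, edgeR). Zim1, a maternally expressed zinc finger gene of the Peg3 cluster, had 9.87, 10.2 and 5.14 CPM in the depleted libraries and 5.02, 4.84 and 4.60 CPM in the controls (paired 0.75 ± 0.28; adjusted p = 0.104, edgeR).

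Neighbouring genes were also compared within each library, which removes the scale of the library, as log2 ratios of counts with 0.5 added to each. Of 17 pairs listed, 14 had both genes tested. The smallest exact two-sided p, 0.1, was reached by 3 pairs, Peg10/Sgce, Nespas/Gnas and Peg13/Trappc9 (difference 0.43), and became 0.467 after Benjamini-Hochberg adjustment over the 14. The ratio was higher in the depleted library of all 3 pairs for Mest/Copg2 (mean difference 1.29, exact p = 0.7) and H19/Igf2 (2.50, exact p = 0.6), and lower in all 3 for Zrsr1/Commd1 (−0.37, exact p = 0.5). Usp29/Peg3 differed by 0.77, Kcnq1ot1/Cdkn1c by −0.59, Rian/Meg3 by −0.20 and Mirg/Meg3 by −0.13. Differences were 0.02 for Snrpn/Ube3a, −0.25 for Mcts2 over its host gene H13, 0.02 for Nnat over its host gene Blcap, and −1.31 for Nap1l5 over its host gene Herc3. The H19/Igf2 differences ran over 0.70 to 4.88 across pairs, with Igf2 at 0 counts in depleted library 3 and H19 at 0 in control library 2, where the added 0.5 sets the ratio. Those of Mest/Copg2 ran over 0.35 to 3.15, the highest in pair 2, whose control had 5 Mest counts. The Nap1l5 value rests on 0 to 19 counts of Nap1l5 per library. No ratio can pass 0.05 with 3 libraries a group.

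**Figure D3:**
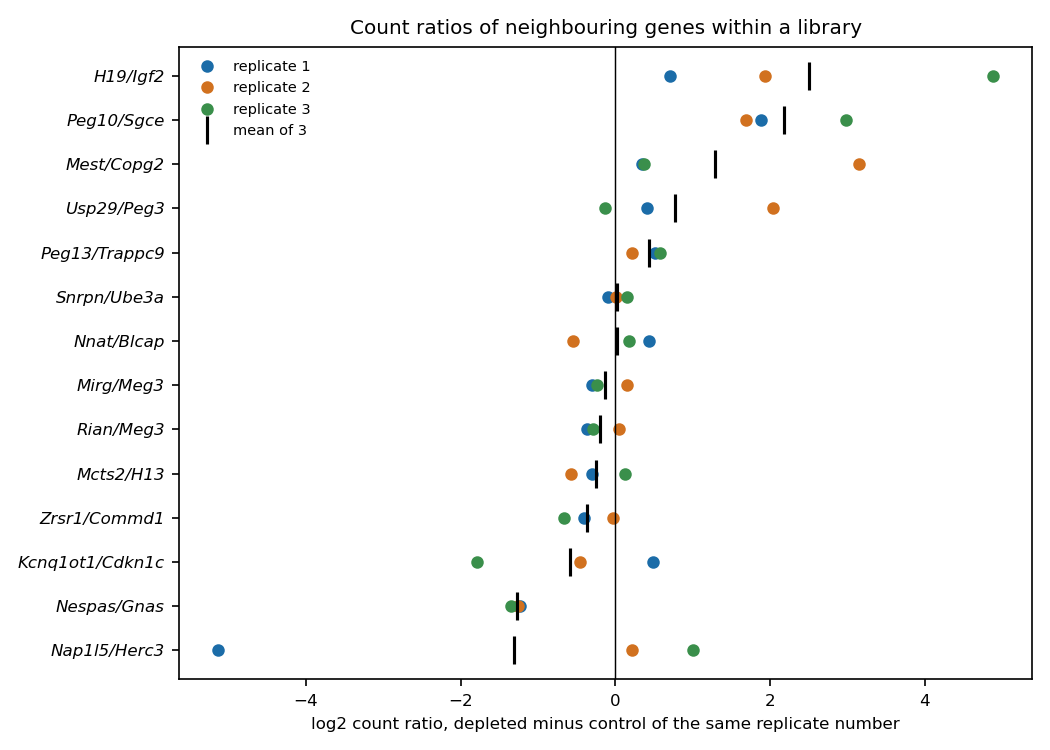
Difference in the log2 count ratio of 14 neighbouring gene pairs, each depleted library minus the control library of the same number (points), with the mean of 3 (black bars). All 3 points lie above 0 for Peg10/Sgce and Peg13/Trappc9 and below 0 for Nespas/Gnas, while those of Nap1l5/Herc3 lie on both sides.

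In the Kcnq1ot1 cluster on chromosome 7, the paternally expressed antisense RNA Kcnq1ot1 silences neighbouring genes such as the cell cycle inhibitor Cdkn1c. Kcnq1ot1 had 810.3, 834 and 716 CPM in the depleted libraries and 814, 939.8 and 692 CPM in the controls, overlapping ranges with a paired log2 fold change of −0.04 ± 0.07. Cdkn1c had 3.62, 4.11 and 5.89 CPM in the depleted libraries and 5.10, 3.36 and 1.62 CPM in the controls. The placental transcription factor gene Ascl2 had 1.56, 0.776 and 0.609 CPM in the depleted libraries and 1.33, 0.285 and 1.46 CPM in the controls. Neither was called. Dhcr7, which encodes the last enzyme of cholesterol synthesis, was higher in each depleted library than in its pair (74.4, 47.5 and 60.3 CPM in depleted libraries, 55.5, 45.5 and 58.6 CPM in controls) without passing the test (paired 0.18 ± 0.11; adjusted p = 0.338, edgeR). Kcnq1 itself, a potassium channel gene, had 1, 5 and 4 counts in the depleted libraries and 8, 4 and 6 in the controls and was too low to test.

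The Dlk1-Meg3 cluster on chromosome 12 makes a long run of maternally expressed noncoding RNAs, Meg3, Rian and Mirg, with small nucleolar RNAs carried by Rian and microRNAs by Mirg. Meg3 had 228, 288 and 178 CPM in the depleted libraries and 186, 270.4 and 157 CPM in the controls, with every depleted library above its pair but overlapping groups (paired 0.19 ± 0.08; adjusted p = 0.123, edgeR). Rian had 417, 686 and 321 CPM in the depleted libraries and 439, 626 and 344 CPM in the controls. Mirg had 127, 127 and 97.9 CPM in the depleted libraries and 127, 108 and 101 CPM in the controls. The groups overlapped for all 3 RNAs. The paternally expressed Dlk1, which encodes a Notch-like membrane protein, had 0, 0 and 0 counts in the depleted libraries and 8, 13 and 0 in the controls and could not be tested. A count of 0 allows up to 0.134, 0.137 and 0.203 CPM in depleted libraries 1 to 3, against 0.304, 0.740 and 0 CPM in control libraries 1 to 3, of which the last was at 0 as well.

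The Rtl1 row, for a retrotransposon-derived gene of the same cluster, held 142, 0 and 0 counts in the depleted libraries and 0, 101 and 0 in the controls. MicroRNA genes on the opposite strand lie inside it. The 15 microRNA rows within the Rtl1 interval summed to 153, 261 and 100 counts in the depleted libraries and 174, 141 and 104 in the controls. The microRNA rows thus held counts in every library, also where the Rtl1 row was at 0. The deposited values are estimates, and the 2 microRNA rows within Meg3 summed to 2 in every library. Whether such counts stand for reads at these positions was not tested. Among these rows, Mir127 had 14, 17 and 15 counts in the depleted libraries and 8, 1 and 3 in the controls, and Mir433 had 32, 47 and 14 in the depleted libraries and 21, 25 and 15 in the controls. These 2 of the 15 rows are named for what is known of them, and the others are not shown singly. The counts are small and not scaled to library size, and differences between the groups in these rows were not tested. Reads of longer RNAs can fall in microRNA rows. The mature microRNAs of Mir127 and Mir433 are known to pair with Rtl1 RNA in mouse, being read from its opposite strand. They are printed with the seed, bases 2 to 8, in capitals (RefSeq, GRCm38.p6), and their seeds differ.
mmu-miR-127-3p: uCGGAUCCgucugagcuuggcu
mmu-miR-433-3p: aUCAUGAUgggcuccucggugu

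In the Snrpn cluster on chromosome 7, Snrpn encodes a core spliceosomal protein and Ube3a a ubiquitin ligase whose imprinting is restricted to neurons. Snrpn had 98.6, 117 and 99.7 CPM in the depleted libraries and 116, 109 and 101 CPM in the controls, and Ube3a 396, 610.1 and 350.1 CPM in the depleted libraries and 437, 571 and 394 CPM in the controls. The intronless genes of the cluster overlapped too. Ndn, a paternally expressed gene of the MAGE family, had 6.20, 6.89 and 6.84 CPM in the depleted libraries and 6.77, 4.55 and 5.25 CPM in the controls. Its relative Magel2 had 2.10, 1.78 and 1.76 CPM in the depleted libraries and 2.55, 2.39 and 1.52 CPM in the controls. Mkrn3, a ring finger gene that restrains puberty, had 17.0, 18.3 and 16.1 CPM in the depleted libraries and 19.8, 13.8 and 17.2 CPM in the controls. No gene of this cluster was called.

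In the Peg3 cluster, Peg3 and Usp29 are read in opposite directions from starts with 96 bases between them. Peg3, a paternally expressed zinc finger gene, had 84.5, 83.1 and 61.3 CPM in the depleted libraries and 84.4, 100.2 and 66.0 CPM in the controls. Usp29, named for a ubiquitin protease, had 5.36, 8.40 and 2.98 CPM in the depleted libraries and 4.03, 2.45 and 3.52 CPM in the controls. Neither was called. At the Igf2r locus, the maternally expressed receptor gene Igf2r, which clears IGF2, had 59.9, 63.1 and 74.9 CPM in the depleted libraries and 53.5, 71.4 and 94.4 CPM in the controls. Airn, the antisense RNA that silences Igf2r on the paternal copy in later development, had 14, 4 and 0 counts in the depleted libraries and 12, 7 and 10 in the controls and was not tested.

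Among the genes that stand alone or within a host, Inpp5f, which encodes a phosphoinositide phosphatase, had 31.4, 38.1 and 38.5 CPM in the depleted libraries and 33.8, 40.2 and 37.9 CPM in the controls. Plagl1, a zinc finger gene that links imprinted genes in a growth network, had 5.45, 3.24 and 9.004 CPM in the depleted libraries and 4.76, 4.15 and 6.28 CPM in the controls. Mcts2, a retrogene inside an intron of H13, had 25.9, 10.8 and 37.6 CPM in the depleted libraries and 29.95, 12.9 and 22.7 CPM in the controls. Nap1l5, another retrogene, inside Herc3, had 0, 4 and 18 counts in the depleted libraries and 19, 4 and 15 in the controls. The groups overlapped for all 4 genes.

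Over all genes tested, the paired fit called 7.9% lower and 4.96% higher (12.9% in either direction). By parental copy, 19 paternally expressed genes were tested, of which 3 were called lower and 1 higher in the paired fit, with a median unpaired log2 fold change of −0.03. Of 10 maternally expressed genes none was called, at a median of 0.17, and 2 had an unadjusted paired p under 0.05, as had 4899 of all 17573 genes tested. Of 7 with imprinting restricted to some tissues, 1 was called lower and 1 higher, at a median of −0.05. All 6 calls fell among the 28 intron-containing genes (median 0.09) and none among the 8 unspliced or intronless ones tested (median −0.01). With 12.9% of all genes called, a lack of calls among 8 genes cannot be told apart from that share. Of these 8, Nap1l5, Magel2 and Peg13 had under 100 counts in every library. The intronless group had no gene at an unadjusted p under 0.05 in either edgeR fit. Among all 17573 genes tested, 4899 reached it in the paired fit and 10.9% in the unpaired one. The difference between intron-containing and intronless genes was not tested. By genomic length, 12 genes under 10 kb had a median paired log2 fold change of 0.13, with −0.03 for 8 of 10 to 30 kb, −0.04 for 11 of 30 to 100 kb and −0.05 for 5 of 100 kb or more. Over the 36 genes Spearman's rho of length and fold change was −0.21, given as a description, since the genes share their libraries and some overlap.

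**Figure D4:**
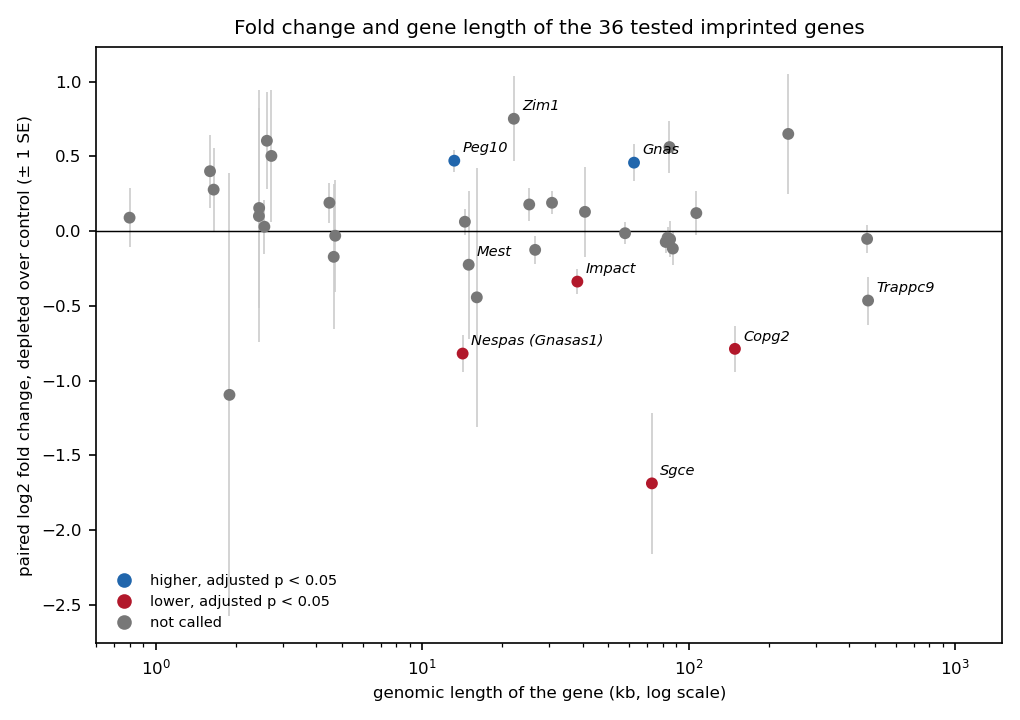
Paired log2 fold change of the 36 imprinted genes against genomic length in kb on a log axis, with called genes coloured. The called genes span 13.2 to 149 kb, and no gene under 10 kb was called.

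Several imprinted genes, H19, Mest and Grb10 among them, differed far more between replicate numbers than between depleted and control libraries. With the 2 replicate terms of the paired fit tested together, 15 of the 36 genes (41.7%) differed between numbers at an adjusted p of 0.05, against 23.2% of all genes tested by edgeR. H19, a maternally expressed noncoding RNA, had 0.714, 0.183 and 38.9 CPM in depleted libraries 1 to 3 and 0.457, 0 and 28.4 CPM in control libraries 1 to 3 (adjusted p for number = 4.9e-07, edgeR). Nearly all of its reads came from the libraries numbered 3 (16, 4 and 574 counts in the depleted libraries and 12, 0 and 525 in the controls). Mest showed the same order, with 111, 42 and 1492 counts in the depleted libraries and 208, 5 and 2572 in the controls (adjusted p for number = 0.0116, edgeR). Grb10, which encodes an adaptor that restrains growth and is expressed from the maternal copy in most tissues, ran the opposite way, low in the libraries numbered 3. It had 41.6, 36.8 and 6.84 CPM in depleted libraries 1 to 3 and 38.1, 30.7 and 7.20 CPM in control libraries 1 to 3 (adjusted p for number = 1.26e-05, edgeR).

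Nnat, a paternally expressed gene for a small membrane protein of neurons and endocrine cells, was at 0 in both libraries numbered 2, with 2.41, 0 and 2.98 CPM in the depleted libraries and 1.90, 0 and 3.03 CPM in the controls (adjusted p for number = 0.00166, edgeR). Those zeros allow up to 0.137 CPM in the depleted library and 0.171 CPM in the control, with counting error alone in view. Zrsr1, an intronless paternally expressed relative of a splicing factor gene, had 39.4, 30.02 and 55.1 CPM in the depleted libraries and 35.4, 21.5 and 56.9 CPM in the controls, lowest at number 2 and highest at number 3 (adjusted p = 0.0012, edgeR). Rian was highest at number 2 in both groups (adjusted p = 4.54e-05, edgeR). Peg10, Meg3, Ube3a, Copg2, Mcts2, Gnas, Peg3, Igf2r and Kcnq1ot1 were the others called. Of the 15, 2 were highest at number 1, 6 at number 2 and 7 at number 3, so no single number held them all. Igf2, the paternally expressed growth factor gene next to H19, had 47, 55 and 0 counts in the depleted libraries and 58, 23 and 13 in the controls and was not called.

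**Figure D5:**
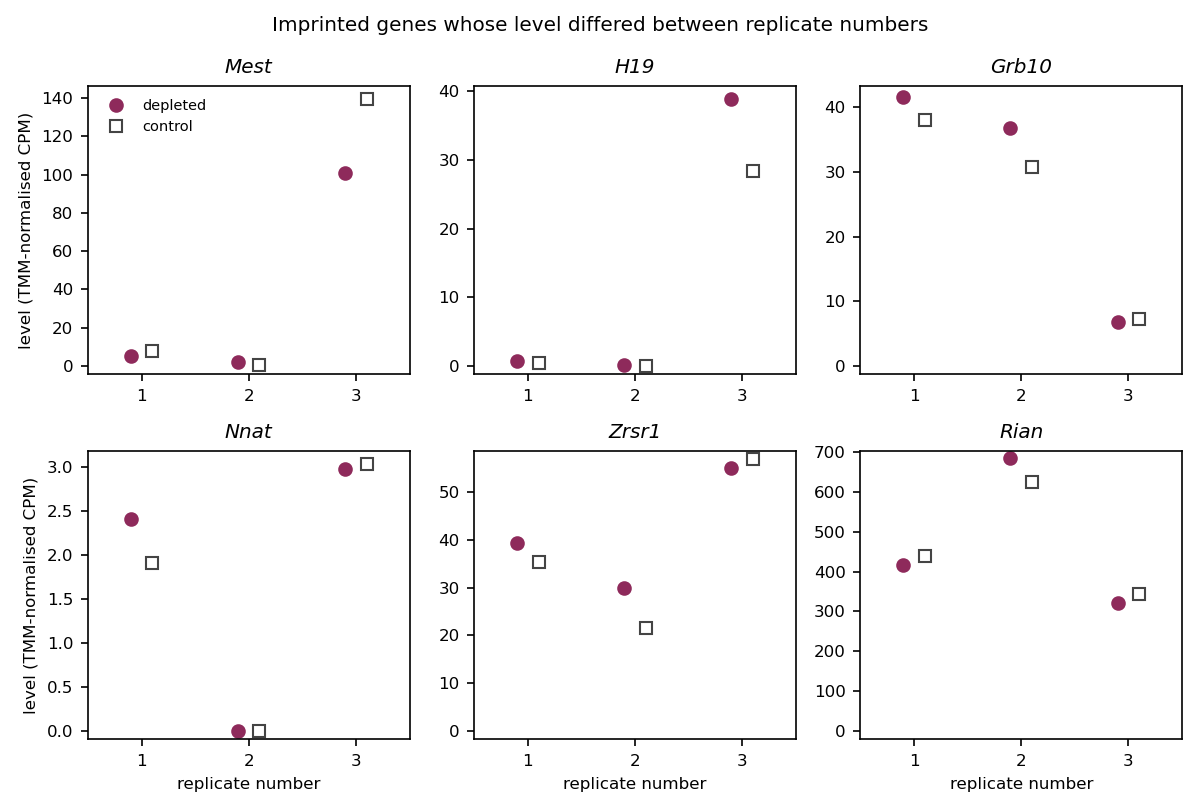
CPM of Mest, H19, Grb10, Nnat, Zrsr1 and Rian at each replicate number, with depleted and control libraries side by side. In each gene the libraries of one number differ from those of the others in both groups, by far more than depleted and control libraries of a number differ from each other in H19 and Grb10.

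Other genes moved with the numbers as well. Zfp207 RNA was highest at number 2 in both groups, with means of 620, 1291 and 572 CPM at numbers 1 to 3 (adjusted p for number = 7.7e-06, edgeR). The 4 markers of the 2-cell-like state that some embryonic stem cells enter summed to 7.99, 0.867 and 21.9 CPM in depleted libraries 1 to 3 and to 4.41, 0 and 13.4 CPM in control libraries 1 to 3, and 2 of the 4 could be tested. Dppa3, which protects methylation in the early embryo, had 8.12, 9.26 and 1.15 CPM in the depleted libraries and 7.38, 9.45 and 2.98 CPM in the controls, lowest at number 3. The 10 embryonic stem cell markers together were highest at number 3 in both groups (5572 CPM in the depleted library and 5186 CPM in the control). Of 15 factors that keep or remove imprints, 10 were called for replicate number by edgeR (66.7%, against 23.2% of all genes tested). This was not particular to them. Among the 10 embryonic stem cell markers, Pou5f1, Nanog, Esrrb, Utf1, Tdgf1, Tfcp2l1 and Dppa5a were called for number too, and Sox2, Klf4 and Zfp42 were not. The part of the 15 factors in the differences of H19, Mest and Grb10 was not tested, and the labels give no date, passage or clone for the numbers.

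Mest and H19 are also the hosts of microRNAs, printed with the seed in capitals (RefSeq, GRCm38.p6). Reads of the host RNA itself can fall in the microRNA rows, so these cannot show a precursor apart from its host.
mmu-miR-335-5p: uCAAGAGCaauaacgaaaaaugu
mmu-miR-675-5p: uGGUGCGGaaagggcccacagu
The Mir335 row, within Mest, had 0, 0 and 4 counts in the depleted libraries and 0, 0 and 2 in the controls, too few to compare. All of these counts lay in the libraries numbered 3, in which Mest was high. The Mir675 row, within H19, had 1, 0 and 1 count in the depleted libraries and 1, 0 and 1 in the controls, too few to compare.

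RefSeq promoter windows, 250 bases before to 50 after an annotated start, were found for 30 of the 40 genes (46 windows, some genes having several). The median window held 15.5 CpG, against 7 over all 32851 windows. The hexamer TGCCGC, the core of the motif that ZFP57 binds when methylated, was searched on both strands (its reverse complement is GCGGCA). It stood in 14 of the 46 windows (30.4%), in 13 genes, and in 11.6% of all windows. The hexamer itself holds a CpG, and the windows of these genes are richer in CpG. The 2 shares are therefore not like for like, and windows matched for CpG were not compared. A match is only a match of letters, and windows of one gene can overlap. The windows of Mest (chr6:30737800-30738099, plus strand, 17 CpG, 2 matches), Copg2 (chr6:30896745-30897044, minus strand, 25 CpG, 1 match) and Grb10 (chr11:12037371-12037670, minus strand, 45 CpG, 1 match) are shown as examples of called genes (Copg2 for depletion, all 3 for replicate number) with a match, chosen after the matches were seen. The Gnas window (chr2:174329756-174330055, plus strand, 40 CpG), of a gene called for both, is shown as an example without one. One other window each of Mest and Grb10 holds no match, nor do those of the called genes Rian, Ube3a, Peg3, Igf2r, Kcnq1ot1 and Zrsr1, and no window was matched for Peg10, Sgce, Nespas, Impact or H19. Capitals mark the hexamer.
Mest: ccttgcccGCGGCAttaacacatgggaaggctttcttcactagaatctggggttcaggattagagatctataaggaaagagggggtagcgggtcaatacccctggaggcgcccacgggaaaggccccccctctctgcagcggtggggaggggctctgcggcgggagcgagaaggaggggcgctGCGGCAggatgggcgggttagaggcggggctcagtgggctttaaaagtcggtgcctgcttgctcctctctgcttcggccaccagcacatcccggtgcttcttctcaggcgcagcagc
Copg2: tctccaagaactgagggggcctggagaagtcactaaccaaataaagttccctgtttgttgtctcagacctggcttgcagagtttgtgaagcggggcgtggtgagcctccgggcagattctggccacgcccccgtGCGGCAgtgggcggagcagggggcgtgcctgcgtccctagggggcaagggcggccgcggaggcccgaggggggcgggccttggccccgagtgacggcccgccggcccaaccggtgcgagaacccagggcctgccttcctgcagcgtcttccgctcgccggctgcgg
Grb10: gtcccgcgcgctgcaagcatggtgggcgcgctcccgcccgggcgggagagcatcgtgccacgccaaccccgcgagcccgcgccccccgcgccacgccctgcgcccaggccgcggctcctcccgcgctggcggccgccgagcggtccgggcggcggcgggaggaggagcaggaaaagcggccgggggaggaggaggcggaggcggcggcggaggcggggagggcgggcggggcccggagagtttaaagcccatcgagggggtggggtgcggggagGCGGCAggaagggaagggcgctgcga
Gnas: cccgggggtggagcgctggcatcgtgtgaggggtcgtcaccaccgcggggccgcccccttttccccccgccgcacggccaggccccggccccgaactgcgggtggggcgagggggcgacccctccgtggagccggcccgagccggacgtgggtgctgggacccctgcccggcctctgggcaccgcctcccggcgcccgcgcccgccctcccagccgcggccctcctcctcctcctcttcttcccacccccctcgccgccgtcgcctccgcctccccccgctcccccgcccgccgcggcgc

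Among 45 further imprinted genes, 33 were tested, and in the paired fit 2 were called lower and 2 higher (12.1% in either direction, against 12.9% of all genes tested), so the calls named here are as frequent as over all genes. Dio3, which encodes the enzyme that inactivates thyroid hormone and lies at the end of the Dlk1-Meg3 cluster, rose by 1.87 ± 0.43 on the log2 scale (SE; adjusted p = 0.0132, edgeR). It had 3.66, 1.55 and 9.41 CPM in the depleted libraries and 0.951, 0.228 and 3.74 CPM in the controls, each depleted library above its pair, with overlapping groups. Cd81, a tetraspanin gene of the Kcnq1ot1 cluster, had 197, 180.2 and 207 CPM in the depleted libraries, against 164, 123.2 and 150.1 CPM in the controls, and rose by 0.42 ± 0.08 (adjusted p = 0.00546, edgeR). Ddc, which encodes aromatic amino acid decarboxylase next to Grb10, had 14.2, 11.7 and 25.1 CPM in the depleted libraries, against 23.5, 27.0 and 29.7 CPM in the controls, and fell by 0.72 (SE 0.19; adjusted p = 0.0245, edgeR). Ppp1r9a was the other lower gene. None of the 33 was called in the unpaired fit, in which 1 had an unadjusted p under 0.05, nor by DESeq2.

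Of the 15 factors that set, keep or erase methylation imprints, 1 was called lower and 2 higher in the paired fit, which called 7.9% and 4.96% of all genes tested. Dnmt3a, a de novo DNA methyltransferase, had 36.1, 41.9 and 53.7 CPM in the depleted libraries, against 54.0, 62.8 and 61.0 CPM in the controls, and fell by 0.45 (SE 0.12; adjusted p = 0.0253, edgeR). Trim28, the corepressor that ZFP57 recruits, had 1308, 1148 and 1634 CPM in the depleted libraries, against 1190.5, 852 and 1266 CPM in the controls, and rose by 0.31 ± 0.07 (adjusted p = 0.0135, edgeR). Ehmt2, a histone H3 lysine methyltransferase, had 147, 122.5 and 138 CPM in the depleted libraries, against 114, 81.4 and 115 CPM in the controls, and rose by 0.40 ± 0.09 (adjusted p = 0.0113, edgeR). Zfp57 had 759, 635 and 716 CPM in the depleted libraries and 668, 639 and 711 CPM in the controls, with overlapping groups. None of the 15 was called in the unpaired fit or by DESeq2, and 1 had an unadjusted unpaired p under 0.05.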

How the data were processed

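The submitters deposited estimated counts of reads per gene, whole numbers in 55401 rows and 6 columns named as the sample titles. The build mm10 and the tools StringTie 2.2.1, HISAT2 2.2.1 and DESeq2 1.42.0 are named in the submitters' processing notes without roles. Per the labels' protocols, thiol-labelled RNA was biotinylated, captured on streptavidin and sequenced from Vazyme kit libraries.

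Counts were tested in R 4.3.3 with edgeR 4.0.16 (robust quasi-likelihood, TMM factors, filterByExpr, Benjamini-Hochberg over 17573 genes, threshold 0.05), both without and with replicate number as a block. Pairing was decided from the correlation of same-numbered libraries' deviations, each over 0.1. DESeq2 1.42.0 was an alternative. Levels are TMM-normalised CPM, and standard errors follow from the fold change and the F statistic. Floors take 3 counts. In simulated counts for this comparison (16957 genes), the paired fit recovered 57.4% of genes changed by 1 on the log2 scale and 74.5% of those changed by 2. It also called 15 genes that had not been changed between the groups, and the unpaired fit called 8 such genes. Exact permutation tests covered ratios and cluster sums. Alternatives were other scalings, filters and pseudocounts and leaving out each library or pair. Kcnq1, Airn, Dlk1 and Rtl1 did not pass the filter. Coordinates and sequences are RefSeq's, GRCm38.p6, by symbol or synonym. The members and all lists were chosen with earlier results of these data known. The test of replicate number was added after seeing the data. Members are named in full, and of the further lists mainly those called.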

Additional observations from a re-analysis of the deposited data

How the results depend on the processing

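The counts of calls depended most on the replicate block, whose pairing rests on the correlations given with the libraries. Over all genes the 137 called lower without the block became 1388 with it and 579 with DESeq2, and the 2 called higher became 871 and 62. Leaving out a library gave 0 to 1 lower and 0 to 1 higher, and leaving out a pair with the block gave 927, 1016 and 699 lower and 491, 412 and 250 higher for pairs 1, 2 and 3. Among the imprinted genes, the 0 called lower became 4 with the block and 1 with DESeq2 (2 to 4 with the block and a pair left out), and the 0 called higher became 2 with the block (1 with any pair left out). Within the block fit, no filter left 2 lower and 1 higher, and library totals alone gave 5 lower and 1 higher. Relative log scaling gave 4 lower and 3 higher, and leaving out a pair left 2 to 4 lower and 1 higher. The 15 genes called for replicate number were 15 with relative log scaling and 13 with no filter. None of the 6 called genes changed sign under any alternative run, and 22 of the 36 did in at least 1. With the block, Igf2 (−0.44), Ascl2 (0.10) and Rian (−0.014) changed sign, as did Rian (−0.054) and Mkrn3 (−0.046) with library totals alone. With a library left out, the log2 fold changes that changed sign ranged over Mest −3.81 to 3.10, H19 −4.38 to 5.66, Igf2 −0.39 to 0.69, Kcnq1ot1 −0.17 to 0.063, Ascl2 −0.56 to 0.27, Igf2r −0.33 to 0.072, Meg3 −0.0067 to 0.43, Rian −0.35 to 0.28, Mirg −0.010 to 0.18, Peg3 −0.28 to 0.020, Mkrn3 −0.11 to 0.15, Ube3a −0.32 to 0.12, Grb10 −0.28 to 0.62, Plagl1 −0.22 to 0.51, Nnat −0.47 to 0.89, Zrsr1 −0.15 to 0.54, Nap1l5 −2.64 to 0.22, Peg13 −0.11 to 0.066, Mcts2 −0.25 to 0.53 and Inpp5f −0.12 to 0.040. With the block and a pair left out, changed signs gave Mest 0.60, Igf2 −0.89 and −1.41, Kcnq1ot1 0.020, Cdkn1c −0.12, Ascl2 0.028 and 0.76, Rian −0.088, Mirg −0.023, Snrpn 0.040, Mkrn3 −0.16, Plagl1 −0.088, Nnat −0.025, Nap1l5 0.19, Peg13 0.013 and 0.0045 and Mcts2 −0.25. Neighbour ratios that changed sign with a library left out ranged over Mest/Copg2 −1.22 to 3.60, H19/Igf2 −1.74 to 5.56, Mirg/Meg3 −0.37 to 0.016, Snrpn/Ube3a −0.13 to 0.18, Nap1l5/Herc3 −2.93 to 0.044, Mcts2/H13 −0.67 to 0.27 and Nnat/Blcap −2.07 to 2.39, and summed CPM differences of clusters Mest −55.6 to 15.5, Igf2-H19 −8.29 to 12.8, Kcnq1ot1 −76.9 to 39.5, Igf2r −17.1 to 3.37, Dlk1-Meg3 −101 to 151, Peg3 −10.2 to 9.02 and Snrpn −104 to 36.2. The cause of these changes was not tested. Depth limits Sgce, H19, Igf2, Cdkn1c, Ascl2, Magel2, Nnat, Nap1l5, Peg13 and the 4 untested genes, each with under 100 counts in most libraries.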

Other observations

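Over the 36 imprinted genes tested, same-numbered depleted and control libraries deviated together with correlations of 0.626, 0.880 and 0.861 for numbers 1, 2 and 3, a description over genes that are not independent. Zfp264, a zinc finger gene of the Peg3 cluster, had 7.28, 9.49 and 30.6 CPM in depleted libraries 1 to 3 and 5.33, 10.6 and 30.3 CPM in control libraries 1 to 3, highest at number 3 in both groups like H19 and Mest. When the counts of each cluster with several genes were summed, the Peg13-Trappc9 cluster was the one of 11 in which the groups did not overlap. It had 18.1, 20.6 and 18.8 CPM in depleted libraries 1 to 3, against 26.5, 25.3 and 24.0 CPM in control libraries 1 to 3 (exact two-sided permutation p = 0.1, 0.917 after Benjamini-Hochberg adjustment over the clusters). Most of that sum was Trappc9 (mean 16.1 CPM depleted and 22.2 CPM control), so it repeats the separation of that gene. Peg13 had means of 3.05 CPM depleted and 3.11 CPM control.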
